A study of Mus musculus with 62 samples.

Results

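The myogenic regulatory factors and satellite cell genes described here are Myod1, Myog, Myf5, Myf6, Pax7, Mef2a, Mef2c, Mef2d, Id1 and Id3. They were taken by symbol from 4 expression tables of mouse skeletal muscle and muscle cells, and all 10 were present in each table, among 29239 genes on chow, 21936 under hypoxia or a high-fructose diet, 20956 after AAV injection and 17898 in C2C12 cells. The study asked what the glucose-responsive transcription factor ChREBP, encoded by Mlxipl, does in skeletal muscle, and its 62 RNA-seq libraries form 14 groups. F/F mice are littermate controls that hold floxed ChREBP alleles but no Cre. In ChMKO mice the same alleles meet Cre under the muscle creatine kinase promoter, which is also active in the heart. All mice were male and entered the experiments at 8 to 10 weeks of age.

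On chow, gastrocnemius (GC) and soleus (SOL) were sequenced from F/F and ChMKO mice (n = 5 in each of 4 groups, with the same numbers in the labels of both muscles). In a separate table, GC of both genotypes was sequenced in normoxia on chow (Norm), after 2 weeks in a chamber that simulated an altitude of 5500 m (Hypo), or after 3 months on a diet with 68% of its calories from fructose (HFrD), with n = 4 in each of 6 groups. GC of C57BL/6J mice was sequenced 14 days after intramuscular injection of AAV9-GFP or AAV9-ChREBP, n = 5 each. The viral transgenes were driven by the CMV promoter, which is not specific to a cell type. C2C12 cells, a mouse myoblast line that fuses into myotubes when serum is withdrawn, were stable puromycin-selected lines with an empty vector (CON) or with ChREBP (Ch-OE), sequenced on day 7 of differentiation, n = 4 each. The study's methods describe the replicates of each group as independent. Each C2C12 group is 1 selected line, so the tests in those cells measure the spread between libraries of 1 line.

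Myod1, Myf5, Myog and Myf6 are basic helix-loop-helix (bHLH) factors that bind E-boxes together with E proteins such as Tcf3, Tcf4 and Tcf12. Myf5 and Myod1 act early in the myogenic lineage, Myog drives the differentiation of myoblasts into myotubes, and Myf6, also called MRF4, is the member of the family that predominates in mature fibres. Mef2a, Mef2c and Mef2d are MADS-box factors that act together with the bHLH factors on muscle genes. Id1 and Id3 lack a DNA-binding basic region and hold E proteins away from the bHLH factors, and both are known targets of bone morphogenetic protein (BMP) signalling. Pax7 marks satellite cells, the stem cells that lie beneath the basal lamina of the fibre.

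RefSeq places the 10 genes, in the mouse assembly GRCm38.p6, at chr7:46376474-46379092 (Myod1), chr1:134290004-134292548 (Myog), chr10:107482908-107486927 (Myf5), chr10:107492848-107494723 (Myf6), chr4:139737059-139833530 (Pax7), chr7:67231163-67376456 (Mef2a), chr13:83504017-83667079 (Mef2c), chr3:88141941-88172091 (Mef2d), chr2:152736251-152737410 (Id1) and chr4:136143822-136145392 (Id3). All are annotated as protein coding. Myf5 and Myf6 are neighbours on chromosome 10.

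The 250 bases before an annotated transcript start are shown for the 3 members that rose in C2C12 cells with ChREBP. Letters in capitals mark the E-box letters CANNTG and the letters CTANNNNTA, a simplified form of the sequence that MEF2 factors bind, each searched on both strands.
Myog, chr1:134289754-134290003, plus strand: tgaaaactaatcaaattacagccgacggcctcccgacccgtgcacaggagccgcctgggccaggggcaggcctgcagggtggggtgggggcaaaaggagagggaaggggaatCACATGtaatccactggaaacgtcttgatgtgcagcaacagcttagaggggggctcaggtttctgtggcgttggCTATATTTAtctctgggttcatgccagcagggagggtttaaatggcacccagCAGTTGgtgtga
Myf5, chr10:107486135-107486384, minus strand: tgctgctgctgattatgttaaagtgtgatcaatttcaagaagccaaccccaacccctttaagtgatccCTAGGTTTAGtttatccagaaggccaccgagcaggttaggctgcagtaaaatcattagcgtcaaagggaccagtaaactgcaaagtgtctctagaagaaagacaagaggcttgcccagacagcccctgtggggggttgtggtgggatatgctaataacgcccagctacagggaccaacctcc
Mef2c, chr13:83503784-83504033, plus strand: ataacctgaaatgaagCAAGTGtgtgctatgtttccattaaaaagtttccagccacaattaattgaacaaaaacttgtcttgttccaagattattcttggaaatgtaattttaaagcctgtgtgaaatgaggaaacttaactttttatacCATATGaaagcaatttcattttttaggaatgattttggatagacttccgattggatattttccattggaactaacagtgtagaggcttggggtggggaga
The Myog window held 2 E-boxes, CACATG and CAGTTG, and CTATATTTA. The Myf5 window, which lies within the annotated span of the gene, held no CANNTG and 2 overlapping CTANNNNTA matches, 1 on each strand. The Mef2c window, the first of 3 for this gene, held the E-boxes CAAGTG and CATATG and no CTANNNNTA. Of 32851 windows of the same length in the table, 66.2% held CANNTG and 19.0% held CTANNNNTA. CACGTG, an E-box that ChREBP is known to bind in pairs and that is a case of CANNTG, occurred in 6.02% of all windows and in none of the 9 windows found for 7 of the 10 members (Myog, Myf5, Pax7, Mef2a, Mef2c, Mef2d and Id3). These matches describe letters and not binding.

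The targeted gene followed the labels. In the GC of the hypoxia and diet experiment, Mlxipl was at 7.76 to 10.8 FPKM in the 12 F/F libraries and 2.38 to 4.49 in the 12 ChMKO libraries. FPKM, the unit of all levels below, is the fragments of a gene per kilobase of its length, scaled to the depth of the library. On chow, Mlxipl was at 20.4 to 30.3 FPKM in F/F and 12.5 to 18.5 in ChMKO GC, and at 43.8 to 64.1 and 30.0 to 46.1 FPKM in SOL, where the genotypes overlapped. Neither fall on chow passed the test. Reads from the transcript that remains after deletion still count towards the gene. AAV-ChREBP took Mlxipl from 10.4 to 12.3 FPKM to 52.9 to 101, and Ch-OE took it from 0 to 0.02 FPKM to 12.8 to 13.8. Summed over 12 muscle fibre markers, the tissue libraries held at least 46376 FPKM and the C2C12 libraries 1261 to 1854.

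The 24 libraries of the hypoxia and diet experiment fell into 2 sets that the first principal component separated (61.6% of the variance over 10709 genes). Set 1 holds all 8 HFrD libraries, the Hypo F/F libraries c360 and c361 and the Norm F/F libraries c397 and c401, named by their labels. Set 2 holds Hypo F/F c341 and c348, Norm F/F c368 and c369 and the 8 Norm and Hypo libraries of ChMKO mice. The mean log2 level of genes over 7000 bases, less that of genes under 1500 bases, was 0.18 to 0.32 in set 1 and -0.45 to -0.13 in set 2, each gene taken relative to its mean over libraries. The results of that experiment are given with and without this split. It was examined after the data had been seen.

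The members differed widely in level (FPKM). In F/F GC on chow, Myf6 (76.5 ± 5.54, SD, n = 5), Mef2c (66.9 ± 12.3) and Mef2d (47.8 ± 4.05) were the highest. The range of Mef2c over mice overlapped those of Myf6 and Mef2d. They were followed by Mef2a (18.6 ± 2.64), Id1 (17.3 ± 4.45), Myod1 (13.1 ± 4.09) and Id3 (11.1 ± 2.24), whose neighbours in this order overlapped in every case. Myog (3.32 ± 0.800), Pax7 (0.497 ± 0.148) and Myf5 (0.283 ± 0.0804) came last, with no overlap between Myog and Pax7, while Pax7 and Myf5 overlapped. The C2C12 myotubes had another order. In CON cells, Myog (47.2 ± 1.96, SD, n = 4), Myod1 (39.8 ± 1.93), Mef2d (39.6 ± 0.386) and Myf5 (33.2 ± 1.32) were the highest, Mef2c was at 4.98 ± 0.290 and Pax7 at 5.25 ± 0.281. Myf6 lay between 0.06 and 0.42 FPKM in the 8 C2C12 libraries and was not tested there, since its mean was below 0.5 FPKM. In the hypoxia and diet libraries, where whole reads could be recovered, Pax7 rested on 26 to 85 reads a library, Myf5 on 15 to 51, Myog on 26 to 418 and Myod1 on 76 to 1120, so Pax7 and Myf5 were measured least precisely. In muscle, fewer cells of a type and less RNA per cell cannot be told apart.

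Myog, the differentiation factor, was higher in the C2C12 line that overexpressed ChREBP than in the CON line, and Myod1 stayed within the spread of the libraries. Myog rose 1.60-fold, Mef2c 1.49-fold and Myf5 1.16-fold in the ratio of mean FPKM. Of the 9 members tested, these 3 rose and none fell at an adjusted p under 0.05, the threshold for calling a gene throughout. Of all 11972 genes tested 30.5% were called, so the count of members is near the background.

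Myog was at 45.6, 45.4, 49.1 and 48.6 FPKM in CON and at 77.0, 74.1, 71.8 and 79.1 in Ch-OE. Every Ch-OE library was above every CON library. The difference on the log2(FPKM + 1) scale, on which all differences below are given and which understates changes of low genes, was 0.67 (SE 0.04, 95% interval 0.58 to 0.75, limma adjusted p = 4.39e-07), with an exact permutation p of 0.0286, the smallest that 4 against 4 libraries allow. Leaving out each library in turn gave 0.64 to 0.69. Myod1 was at 40.2, 38.9, 42.2 and 37.7 FPKM in CON and at 40.0, 38.0, 35.6 and 38.7 in Ch-OE. The groups overlapped, and the difference of -0.06 (95% interval -0.16 to 0.03) did not pass the test (adjusted p = 0.313, exact permutation p = 0.286).

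Mef2c was at 4.92, 4.78, 4.80 and 5.40 FPKM in CON and at 7.09, 7.07, 7.30 and 8.16 in Ch-OE, without overlap (difference 0.49, SE 0.06, adjusted p = 6.31e-05). Myf5 was at 33.1, 31.8, 32.7 and 35.0 FPKM in CON and at 39.9, 38.1, 39.3 and 37.1 in Ch-OE, also without overlap (difference 0.21, SE 0.04, adjusted p = 0.00108). Pax7, at 4.83 to 5.43 FPKM in CON and 5.54 to 6.17 in Ch-OE, and Mef2d, at 39.3 to 40.0 and 41.0 to 41.3 FPKM, did not overlap either, yet neither passed the test (adjusted p = 0.124 and 0.117). Mef2a differed by 0.13 (adjusted p = 0.0775, or 0.0284 without CON library 4). Id1, at 9.11 to 13.0 FPKM in CON and 9.65 to 11.3 in Ch-OE, and Id3, at 25.7 to 32.6 and 28.3 to 29.8, overlapped, with differences of -0.10 (interval -0.31 to 0.12) and 0.00 (interval -0.15 to 0.14).

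**Figure D1:**
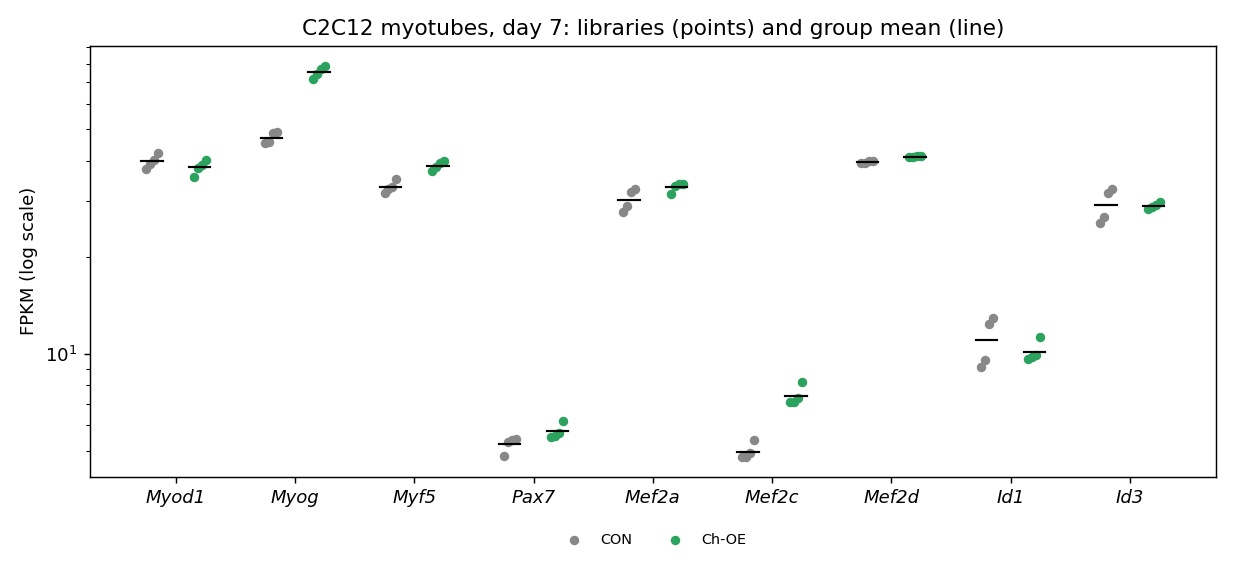
FPKM of the members in the 4 CON and 4 Ch-OE libraries of C2C12 cells on a log axis, with points for libraries and bars for group means. Myog in Ch-OE (71.8 to 79.1) lies above CON (45.4 to 49.1), Mef2c and Myf5 are also separated, and Myod1 overlaps.

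Genes that act beside the members were counted in C2C12 cells against the same 30.5% of all genes called. Of 12 differentiation and fusion genes tested, 9 rose and 1 fell, with a list median of 0.38 against 0.00 over all genes tested. Actc1 (difference 1.03), cardiac actin, and Myh3 (0.99), embryonic myosin, rose most, followed by Mymx (0.66), a fusion protein of the myoblast membrane, while Myh8, perinatal myosin, fell (-0.28). Of 11 acetylcholine receptor and denervation genes tested, 6 rose and none fell, among them Musk (0.52), the agrin-responsive kinase, and Chrng (0.51), the fetal receptor subunit.

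Of 12 further satellite cell genes tested in the C2C12 lines, 3 rose and 5 fell, with a list median of -0.07. Megf10 (0.73), Spry1 (0.64) and Hey1 (0.19) rose, and Heyl (-0.63), Msc (-0.57) and Sdc4 (-0.26) fell most. Hey1 and Heyl are both Notch target genes. Of 13 bHLH partners and co-regulators tested, 6 rose and 1 fell. Hdac9 (0.60), whose product is a class II histone deacetylase that represses MEF2, Id2 (0.36), the sister gene of Id1 and Id3, and Eya1 (0.22), a transcriptional cofactor in muscle precursors, rose most, and Hdac7 (-0.15) fell. The E protein genes Tcf3 (-0.07) and Tcf4 (0.11) did not pass the test and Tcf12 did (0.12). Of 12 BMP signalling genes tested, 3 rose (Grem1 0.80, a secreted BMP antagonist, Smad7 0.28, an inhibitory SMAD, and Smad1 0.11) and none fell, with a list median of 0.02, a count below the background share.

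Markers of muscle fibres and of other cell types moved between the same lines. The sum over 12 muscle fibre markers was 1261 to 1336 FPKM in CON and 1791 to 1854 in Ch-OE, with 8 of 11 tested higher and 2 lower. The sum over 8 fibroblast markers was 3584 to 3734 FPKM in CON and 3177 to 3395 in Ch-OE, with 6 of 7 tested lower. Of 5 smooth muscle and pericyte markers tested, 3 rose and 1 fell, led by Cnn1 (from 0.0725 to 12.5 FPKM on average) and Tagln (from 17.0 to 118 FPKM). The endothelial markers summed to 0.69 to 1.96 FPKM in all 8 libraries, with up to 4 of 8 at 0. The part of these markers in the rise of Myog, Mef2c and Myf5 was not tested.

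Under hypoxia, Myod1 in GC fell to 0.333 of its normoxic level in the ratio of means over both genotypes, and Myog did not change detectably. The comparison asked how the muscle responds to low oxygen with and without ChREBP. Over both genotypes, Myod1 was the only one of 10 members called, and 2.33% of 10751 genes tested were called.

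Myod1 was at 6.51, 7.16, 15.3 and 17.3 FPKM in Norm F/F and at 3.62, 3.92, 3.36 and 7.03 in Hypo F/F. Among ChMKO mice it was at 33.1, 13.5, 17.2 and 13.6 FPKM in Norm and at 2.34, 6.34, 5.41 and 9.23 in Hypo. The ChMKO groups were separate, and in F/F mice 1 hypoxic library, at 7.03 FPKM, lay above the lowest of the normoxic libraries, at 6.51. Group means fell from 11.6 ± 5.54 to 4.48 ± 1.71 in F/F and from 19.4 ± 9.32 to 5.83 ± 2.84 in ChMKO (SD, n = 4).

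**Figure D2:**
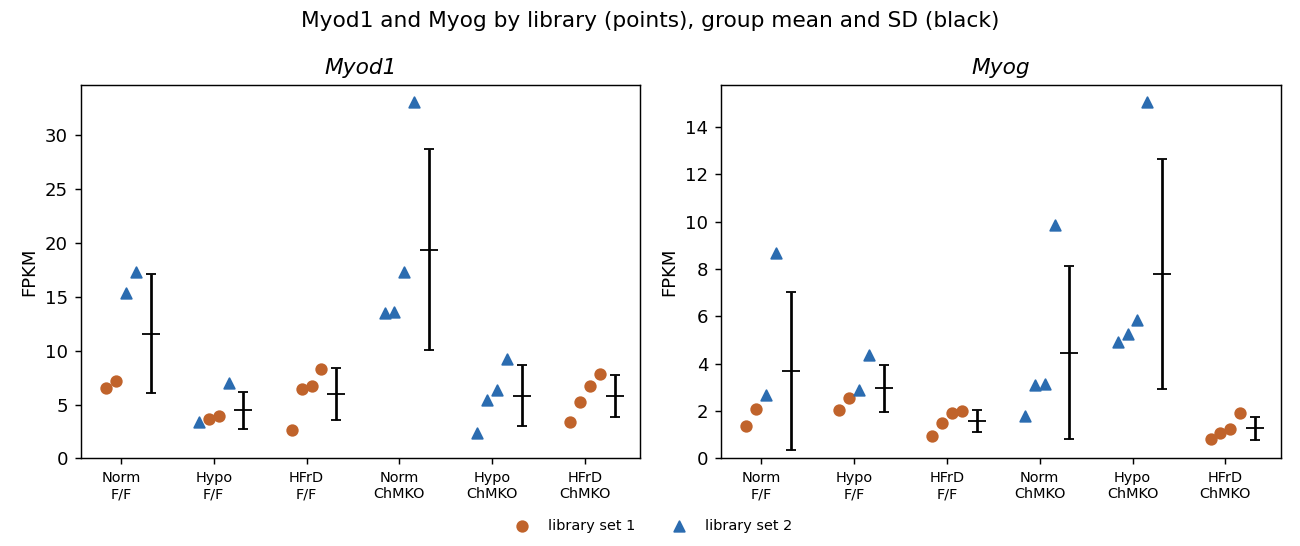
FPKM of Myod1 and Myog in the 24 GC libraries by group, on a linear axis. The 2 sets of libraries have different symbols, and black bars show group mean and SD. Myod1 in Hypo ChMKO (2.34 to 9.23) lies below Norm ChMKO (13.5 to 33.1), and Myog overlaps between Norm and Hypo in both genotypes.

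With genotype in the fit, Myod1 differed by -1.36 between Hypo and Norm (SE 0.26, 95% interval -1.92 to -0.80, adjusted p = 0.0168). An exact permutation test that moved libraries only within genotype gave p = 0.000816, where the smallest possible p was 0.000408. This was 1 of 8 such tests, those of Myod1 and Myog in hypoxia and in C2C12 cells. Leaving out each of the 16 libraries in turn gave -1.47 to -1.20 with adjusted p from 0.00915 to 0.0405. With the library set as a term the adjusted p was 0.00401 and 8.36% of all genes were called. Within set 2 alone the difference was -1.57 (n = 6 each, adjusted p = 0.00670, 5.25% of genes called), and within set 1 alone, which holds F/F libraries only, it was -0.72 (n = 2 each, adjusted p = 0.0275, 0.748% of genes called).

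Within a genotype the fall was of similar size but did not pass the test across all genes. In F/F mice Myod1 differed by -1.13 (95% interval -1.88 to -0.38, adjusted p = 1.00, exact permutation p = 0.0571). None of 10 members and 0% of 10740 genes were called by limma in that comparison, 1 member and 411 genes having an unadjusted p under 0.05. In ChMKO mice it differed by -1.59 (interval -2.36 to -0.82, adjusted p = 0.0689, exact permutation p = 0.0286, the smallest possible), with none of 9 members and 0.890% of 10676 genes called, and 1 member under an unadjusted 0.05. When all 6 groups shared 1 estimate of the spread, Myod1 in ChMKO passed (adjusted p = 0.0294). The test of whether the fall differed between genotypes gave -0.46 (interval -1.59 to 0.67), and 0% of 10751 genes and none of 10 members were called by limma for this interaction, with 132 genes and no member at an unadjusted p under 0.05.

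Myog was at 2.07, 1.37, 2.68 and 8.67 FPKM in Norm F/F and at 2.57, 2.04, 4.35 and 2.89 in Hypo F/F. Among ChMKO mice it was at 9.85, 1.78, 3.13 and 3.10 FPKM in Norm and at 5.87, 5.28, 4.92 and 15.0 in Hypo. Norm and Hypo overlapped in both genotypes, and each group except Hypo F/F held 1 library far above the others. The differences were -0.05 in F/F (interval -0.96 to 0.86, exact permutation p = 0.914), 0.75 in ChMKO (interval -0.17 to 1.68, exact permutation p = 0.286) and 0.35 over both (interval -0.34 to 1.04, adjusted p = 0.656, exact permutation p = 0.352). The value in F/F changed sign without Norm F/F c369 (0.37), without Hypo F/F c361 (0.07), within set 1 (0.29) and on recovered reads (0.03).

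The libraries highest in Myog were also high in macrophage markers. The sum over 8 such markers was 221 FPKM in Norm F/F c369, 205 in Hypo ChMKO c345 and 149.9 in Norm ChMKO KO_370, the 3 libraries with the highest Myog, and 45.0 to 125.7 in the other 21 libraries. Their part in the level of Myog was not tested. None of 8 macrophage markers was called between Hypo and Norm over both genotypes.

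The other members showed no detectable response to hypoxia over both genotypes. Id1 differed by 0.37 (interval -0.06 to 0.81) and Id3 by 0.26 (-0.23 to 0.75), Mef2a by -0.19 (-0.59 to 0.21), Mef2c by -0.11 (-0.54 to 0.32) and Mef2d by 0.08 (-0.12 to 0.28). Myf6 differed by -0.10 (-0.40 to 0.21), Pax7 by -0.12 (-0.29 to 0.06) and Myf5 by 0.00 (-0.18 to 0.17). In both genotypes Myf6 stayed the highest of the bHLH members, at 73.99 to 154.3 FPKM in hypoxia and 76.5 to 154.6 in normoxia.

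Markers of slow fibres moved beside the fall of Myod1. Of 8 slow fibre markers tested over both genotypes, 4 rose and none fell, with a list median of 1.82 against -0.05 over all genes tested. Tnnc1 (2.53), Myh7 (2.50) and Tnni1 (2.42), troponin and myosin genes of the slow fibre, rose most. The sum over the 8 markers was 139.8 to 571 FPKM in Norm F/F and 247 to 1329.8 in Hypo F/F, and 91.3 to 409 in Norm ChMKO and 236 to 1431 in Hypo ChMKO, so that the groups overlapped. The sum over 5 red blood cell markers was 103 to 387 FPKM in Norm F/F and 156 to 644 in Hypo F/F, and 217 to 407 in Norm ChMKO and 316 to 839.8 in Hypo ChMKO, with none of 5 called. The part of either in the fall of Myod1 was not tested.

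The list counts under hypoxia stand beside the 2.33% of all genes called. Of the other lists, bHLH partners and co-regulators had 2 of 15 lower, Bhlhe41 (-0.51), a repressor in the circadian clock, and Id4 (-0.31). Differentiation and fusion genes had 1 of 8 higher, Mybph (1.28), a myosin-binding protein, with a list median of 0.42. None of 9 further satellite cell genes, of 9 acetylcholine receptor and denervation genes or of 14 BMP signalling genes was called.

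**Figure D3:**
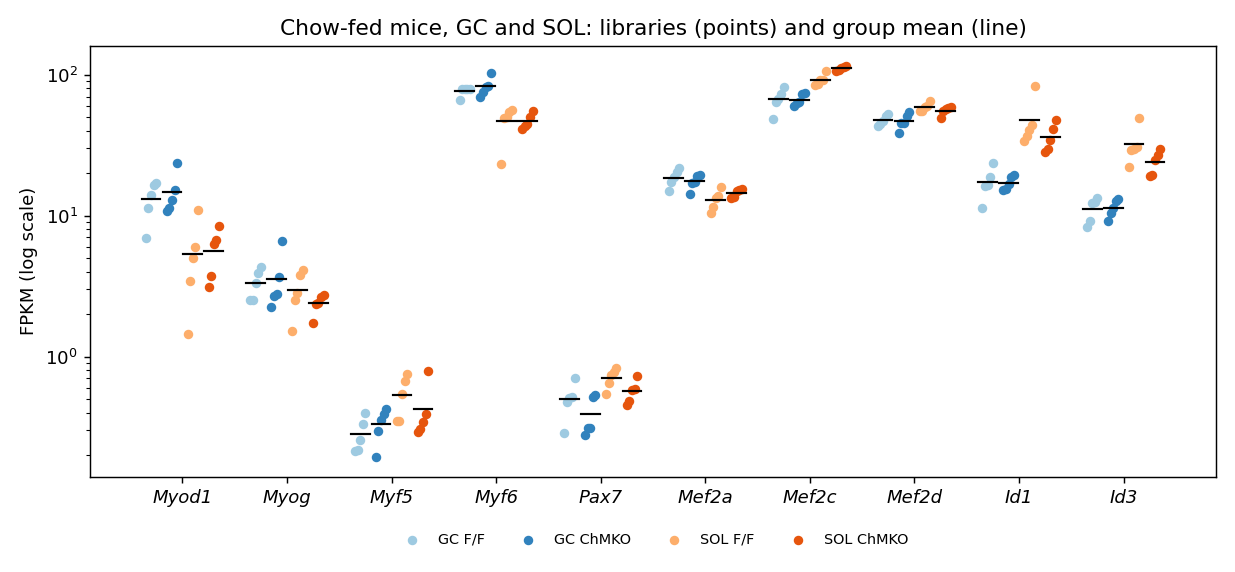
FPKM of the members in the 2 muscles of chow-fed mice by genotype (5 mice a group), on a log axis, with points for mice and bars for group means. Id1, Id3 and Mef2c are higher in SOL and Myf6 lower without overlap in both genotypes, while Myog overlaps.

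SOL, a slow muscle, and GC, a mixed and mainly fast one, differed in most members, in both genotypes and in the same direction. Id1, Id3, Mef2c and Mef2d were higher in SOL, and Myod1, Myf6 and Mef2a were lower. In F/F mice 4 of 9 members tested rose and 3 fell, against 50.4% of 13235 genes called, and in ChMKO mice 4 of 8 rose and 3 fell, against 57.9% of 13080. Over all genes tested the median difference between SOL and GC was 0.18 in F/F and 0.15 in ChMKO.

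Id1 showed one of the largest differences. It was at 11.4, 23.6, 16.2, 16.6 and 18.8 FPKM in F/F GC and at 33.9, 40.4, 43.9, 36.5 and 82.5 in F/F SOL, with no overlap. The difference was 1.36 in F/F (SE 0.24, adjusted p = 0.000817) and 1.02 in ChMKO (SE 0.13, adjusted p = 5.71e-05). Id3 was at 8.34, 13.4, 9.14, 12.4 and 12.4 FPKM in F/F GC and at 22.3, 30.7, 29.3, 29.6 and 49.4 in F/F SOL, again apart, with differences of 1.43 (SE 0.19) and 1.01 (SE 0.13). SOL F/F library 71 had the highest Id1 and Id3 of all SOL libraries, and also the lowest Myod1 and Myf6.

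Myod1 was at 16.9, 16.4, 14.02, 11.3 and 6.99 FPKM in F/F GC and at 10.98, 6.02, 4.97, 3.41 and 1.43 in F/F SOL. The ranges overlapped in F/F and were separate in ChMKO, at 10.8 to 23.6 FPKM in GC and 3.10 to 8.45 in SOL. The difference was -1.28 in F/F (SE 0.37, adjusted p = 0.0143) and -1.26 in ChMKO (SE 0.25, adjusted p = 0.00128). For each of the 10 numbers that both muscles share, Myod1 was lower in SOL than in GC. Myf6 was at 66.6 to 79.5 FPKM in F/F GC and 23.2 to 56.6 in F/F SOL, a difference of -0.76 (adjusted p = 0.0108), and differed by -0.80 in ChMKO. Myog differed by -0.15 in F/F (interval -0.57 to 0.27) and -0.37 in ChMKO (interval -0.81 to 0.06) and did not pass the test. Without SOL F/F 71 the difference in F/F was 0.0016.

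The Mef2 genes split. Mef2c was at 72.8, 81.9, 48.5, 64.0 and 67.2 FPKM in F/F GC and at 105.8, 91.6, 92.05, 85.6 and 84.5 in F/F SOL, a difference of 0.47 (adjusted p = 0.0108), and differed by 0.73 in ChMKO (adjusted p = 2.75e-06). Mef2a went the other way, by -0.49 in F/F and -0.25 in ChMKO. Mef2d differed by 0.30 in F/F and 0.25 in ChMKO. When each library was rescaled by the median of its ratios to the average library, Mef2c in F/F (0.30, adjusted p = 0.0770) and Mef2d (0.13 in F/F and 0.10 in ChMKO) no longer passed, with the direction kept. The ChMKO calls of Mef2a and Mef2d were also lost when single libraries were left out, in 4 and 6 of 10 cases, with adjusted p of at most 0.0642. Those libraries were GC 59 and 60 and SOL 59 and 61 for Mef2a, and GC 59, 60 and 61 and SOL 59, 60 and 74 for Mef2d. Mef2a in ChMKO also lost its call with the library number as a block (limma adjusted p = 0.0522). Its largest adjusted p over the alternative fits was 0.0611.

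Pax7 was at 0.287 to 0.704 FPKM in F/F GC and 0.538 to 0.831 in F/F SOL (difference 0.19, adjusted p = 0.0804, which became 0.0399 without GC F/F 57, 0.0437 without SOL F/F 71 and 0.0442 with all groups in 1 fit). It was below the filter in ChMKO, at 0.278 to 0.533 FPKM in GC and 0.454 to 0.730 in SOL. Myf5, below the filter in both, was at 0.193 to 0.423 FPKM in GC and 0.292 to 0.791 in SOL. The difference between muscles did not itself differ between genotypes for any of 9 members tested, where limma called 0.00759% of 13176 genes and no member had an unadjusted p under 0.05. That interaction was -0.34 for Id1 (interval -0.93 to 0.24) and -0.42 for Id3 (interval -0.91 to 0.07).

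Among further satellite cell genes, 8 of 12 were higher in F/F SOL and 1 was lower, led by Sdc4 (1.21), Hey1 (0.83) and Heyl (0.70), while Met (-0.36), the receptor of hepatocyte growth factor, was lower. In ChMKO mice 7 of 12 were higher and none lower. These counts, and those of the lists that follow, stand beside the 50.4% of all genes called in F/F and 57.9% in ChMKO, so that 7 of 12 is at the background. Of 15 bHLH partners and co-regulators in F/F, 7 were higher, with Hdac7 (0.91), Id2 (0.87) and Hdac5 (0.69) at the top, and Bhlhe41 (-1.42) and Eya1 (-0.64) were lower. Of 14 BMP signalling genes, 5 were higher, led by Eng (1.32), Bmp6 (1.23) and Acvrl1 (0.90), and Smad4 (-0.33), the common mediator, was lower. Endothelial markers moved with Id1 and Id3, with 8 of 8 higher in SOL in both genotypes and sums of 60.2 to 113.8 FPKM in GC and 140.4 to 303 in SOL. Smooth muscle and pericyte markers were higher in 6 of 7 in F/F and 7 of 7 in ChMKO. Red blood cell markers were higher in 5 of 5 in both genotypes and adipocyte markers in 2 and 3 of 6, and none of these lists held a lower one. Schwann cell markers were higher in 4 of 5 in ChMKO and in 0 of 7 in F/F. None of 8 fibroblast markers was called in either genotype, and of 8 macrophage markers 1 was lower in ChMKO. Slow fibre markers summed to 90.6 to 900.1 FPKM in GC and 14068 to 22171 in SOL. The part of these cell types and fibres in the members' differences was not tested.

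Loss of ChREBP in muscle changed no member detectably. Between ChMKO and F/F, limma called none of 8 members in chow GC (0.0236% of 12724 genes called), none of 9 in chow SOL (0.0225% of 13348), none of 10 in Norm (0.00922% of 10848), none of 9 in Hypo (0.00941% of 10628) and none of 9 in HFrD (0.0190% of 10515). At an unadjusted p under 0.05 the counts of members were 0, 1, 0, 1 and 1. In chow GC, Myf6 stood at 0.10 (interval -0.12 to 0.32), Mef2a at -0.08 (-0.32 to 0.16), Mef2c at 0.01 (-0.26 to 0.28), Mef2d at -0.03 (-0.23 to 0.17), Id1 at 0.02 (-0.32 to 0.35), Id3 at 0.04 (-0.26 to 0.33), Myog at 0.03 (-0.44 to 0.50) and Myod1 at 0.16 (-0.38 to 0.71).

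In chow SOL, Mef2c was at 84.5 to 105.8 FPKM in F/F and 105.8 to 116.1 in ChMKO, ranges that met, with a difference of 0.27 (interval 0.11 to 0.43, adjusted p = 0.362). In hypoxia, Myog was at 2.04 to 4.35 FPKM in F/F and 4.92 to 15.0 in ChMKO, which did not overlap, yet the difference of 1.04 (interval 0.35 to 1.74) had an adjusted p of 0.532. Within set 2, where 2 F/F and 4 ChMKO libraries remain, it was 0.81 (adjusted p = 1.00). In normoxia Myod1 differed by 0.71 (interval -0.13 to 1.55), and by 0.14 within set 2. In HFrD, Myf5 was the member with an unadjusted p under 0.05, at 0.521 to 0.975 FPKM in F/F and 0.758 to 1.13 in ChMKO, which overlapped (difference 0.23, adjusted p = 0.655). Mef2a at 15.6 to 16.5 FPKM in F/F and 16.8 to 17.4 in ChMKO did not overlap and did not pass the test (difference 0.07, adjusted p = 0.765).

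On the high-fructose diet 9 of 9 members were called against normoxia in ChMKO mice and 6 of 9 over both genotypes, the latter near the share of all genes called, and none was called in F/F mice or once the 2 sets of libraries were taken into account. The same Norm libraries served as controls for Hypo and HFrD. Hypoxia lasted 2 weeks and the diet 3 months, so the Norm mice cannot match both in age at sampling. That age is not given, and a difference in it cannot be told apart from the diet. In ChMKO mice 9 of 9 members tested were called, 3 higher (Myf5, Mef2a and Mef2c) and 6 lower (Myod1, Myog, Myf6, Mef2d, Id1 and Id3), against 64.0% of 10733 genes. All HFrD libraries lie in set 1 and all Norm ChMKO libraries in set 2, so in ChMKO mice the diet and the library set cannot be told apart. Of these calls, 4 were lost when single libraries were left out: Myf5 without Norm ChMKO KO_374, KO_375 or KO_380 or HFrD ChMKO C291, C293 or C309, Id3 without Norm KO_375 or HFrD C299, Myf6 without HFrD C291 or C309, and Myog without HFrD C293, C299 or C309. The lowest count with 1 library left out was 6 of 9. With all 6 groups in 1 fit the count was 5 of 9, without Myf5, Myf6, Id1 and Id3. That fit called 5760 of 10733 genes, so 5 of 9 is near the background. Myf6 and Id3 were also lost when libraries were rescaled by the median ratio.

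Markers of other cell types moved in the same comparison of ChMKO mice. Of 8 fibroblast markers 7 were lower, of 8 macrophage markers 6 were lower and 1 higher, of 8 endothelial markers 6 were lower and of 5 red blood cell markers 5 were lower. The fibroblast sum was 290.3 to 604 FPKM in Norm ChMKO and 147 to 179.9 in HFrD ChMKO, the macrophage sum 67.9 to 149.9 and 48.9 to 70.98, and the endothelial sum 104.3 to 116.6 and 61.7 to 71.4. Further satellite cell genes had 6 of 9 lower and none higher, near the 64.0% of all genes called. The part of these cell types in the members' differences was not tested.

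Mef2a shows the split. It was at 15.3 to 17.4 FPKM in the 12 libraries of set 1 and at 5.57 to 11.03 in the 12 of set 2, whatever the treatment. Mef2c was at 57.2 to 76.7 and 20.0 to 43.1 FPKM. Within Norm F/F, Mef2a was at 16.9 and 17.1 FPKM in set 1 and at 11.03 and 7.41 in set 2, and in HFrD F/F it was at 15.6, 16.5, 16.2 and 16.2. The 4 HFrD F/F libraries were thus just below the 2 Norm F/F libraries of their own set in Mef2a. In Mef2c, at 66.3 to 76.7 FPKM, they were above them (57.2 and 66.2 FPKM).

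**Figure D4:**
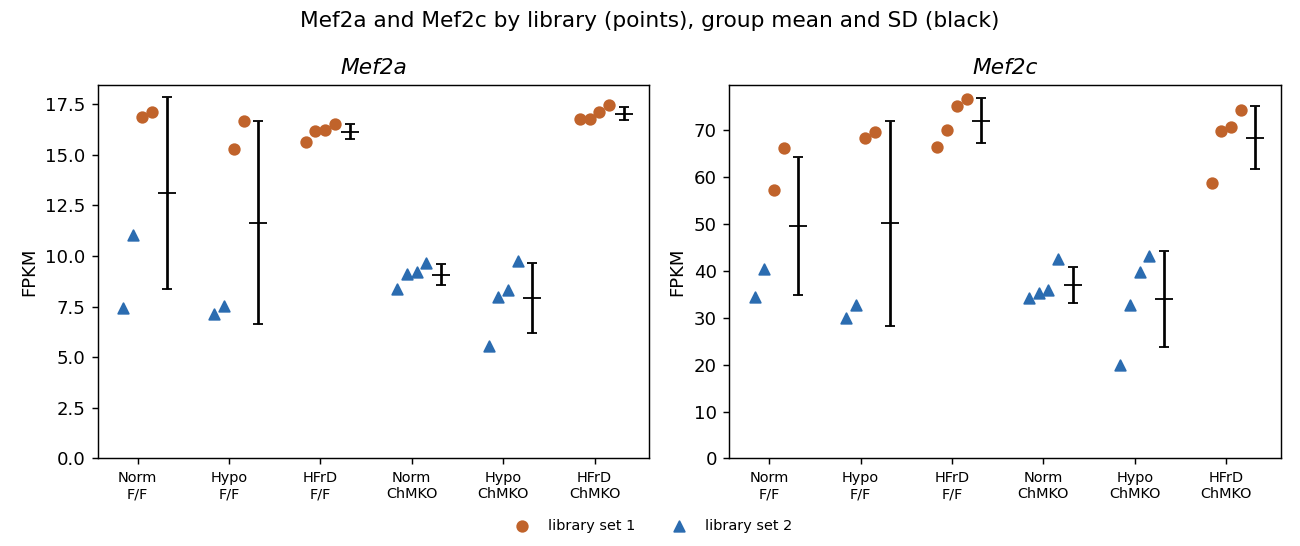
FPKM of Mef2a and Mef2c in the 24 GC libraries by group, on a linear axis, with symbols for the 2 sets of libraries. Mef2a is at 15.3 to 17.4 in the 12 libraries of set 1 and 5.57 to 11.03 in the 12 of set 2.

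Over both genotypes, 2 of 9 members were higher on HFrD (Mef2a 0.59, Mef2c 0.72) and 4 lower (Myod1 -1.18, Myog -0.87, Myf6 -0.36, Mef2d -0.30), against 64.8% of 10734 genes. Id3 was also called without Norm F/F c397 (-0.50) or c401 (-0.57), and Id1 without c401 (-0.44). Pax7, below the filter in this comparison, was at 0.230 to 0.362 FPKM in the 8 HFrD libraries, at 0.450 to 0.829 in Norm F/F, where the 2 libraries of set 1 were at 0.463 and 0.450, and at 0.324 to 0.839 in Norm ChMKO. It was lower without overlap in F/F mice, and with no filter on low values it was called over both genotypes (-0.27, adjusted p = 0.00393). With the library set as a term none of the 9 was called (0.261% of genes), and Myod1 stood at -0.27 (interval -1.03 to 0.48), Myog at -0.05 (-0.92 to 0.82), Mef2c at 0.21 and Mef2a at -0.06. Within set 1 alone, with 8 HFrD and 2 Norm libraries, none was called (1.76% of genes), and Myod1 stood at -0.25 (interval -0.91 to 0.42). In F/F mice alone, limma called none of 9 members and 0% of 10707 genes, with 1 member and 2531 genes at an unadjusted p under 0.05. Myod1 was at 6.48, 2.61, 6.68 and 8.25 FPKM in HFrD F/F, beside 6.51 and 7.16 in the Norm F/F libraries of the same set. The interaction of genotype and diet called none of 9 members and 0% of 10734 genes by limma, with 1107 genes and no member at an unadjusted p under 0.05. Without Norm F/F c369 it called 1 member, Mef2a (0.72, adjusted p = 0.0354), among 1093 of 10722 genes called, so that 1 of 9 members is near the background.

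AAV-ChREBP did not change the members detectably, although Mlxipl itself rose. None of 9 members was called, none had an unadjusted p under 0.05, and 0.00906% of 11033 genes were called by limma. Myod1 was at 8.13, 10.6, 8.85, 12.4 and 14.4 FPKM with AAV-GFP and at 8.43, 9.73, 10.003, 12.4 and 13.5 with AAV-ChREBP. These values overlapped almost fully, and the difference was 0.00 (interval -0.33 to 0.33). Myog was at 3.37, 2.99, 3.11, 7.84 and 4.22 FPKM with AAV-GFP and at 2.60, 3.31, 3.05, 6.14 and 3.94 with AAV-ChREBP, a difference of -0.12 (interval -0.61 to 0.38). The groups overlapped, and libraries with the number 7 were the highest of both. Libraries with the same number deviated together in this experiment, and a fit with the number as a block also called no member (1 of 11033 genes called).

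The Mef2 genes after AAV injection stood at 0.04 (-0.06 to 0.15) for Mef2a, 0.06 (-0.03 to 0.16) for Mef2c and 0.05 (-0.08 to 0.18) for Mef2d. Myf6 was at 68.1, 58.4, 58.2, 54.1 and 52.4 FPKM with AAV-GFP and at 60.9, 55.6, 48.8, 50.6 and 50.6 with AAV-ChREBP. It was lower with AAV-ChREBP in each of the 5 pairs of the same number, while the groups overlapped and the difference was -0.12 (-0.30 to 0.05). Myf5 stood at 0.02 (-0.19 to 0.24), Id1 at 0.01 (-0.26 to 0.28) and Id3 at -0.03 (-0.23 to 0.18). Pax7 was at 0.386 to 0.595 FPKM with AAV-GFP and 0.410 to 0.553 with AAV-ChREBP, below the filter. The rise of Myog seen in C2C12 cells was measured in another table and another system, and a test of the difference between the 2 was not run.

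**Figure D5:**
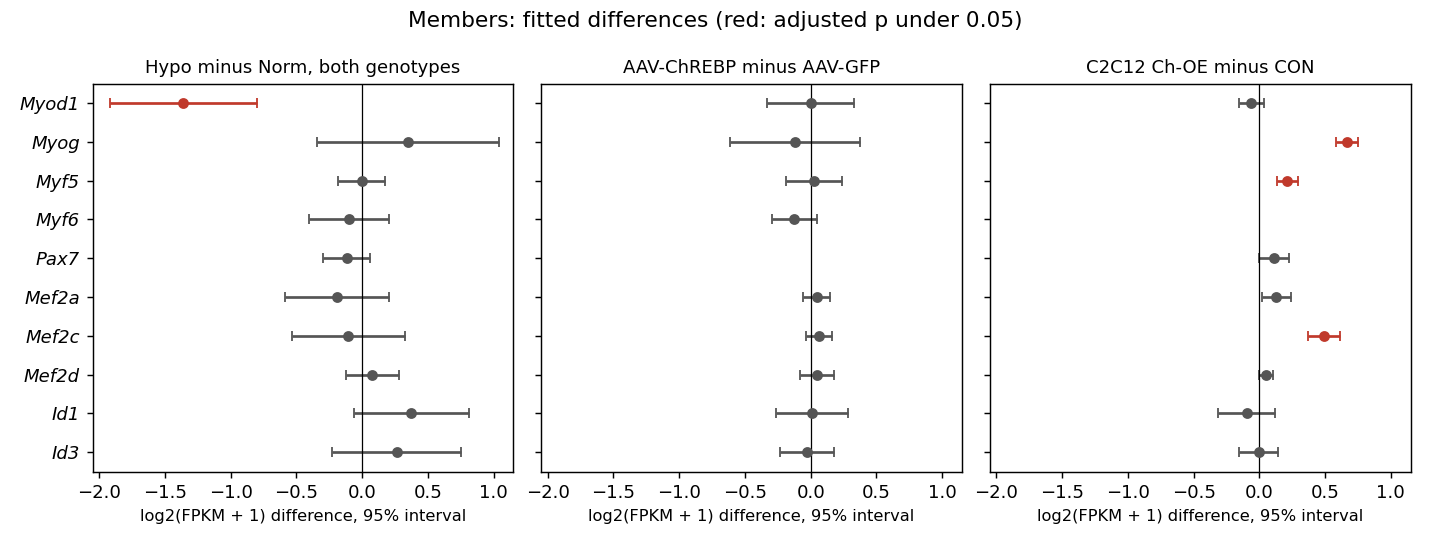
Difference of each member on the log2(FPKM + 1) scale with its 95% interval in the main comparisons, where red marks an adjusted p under 0.05. Myod1 in hypoxia over both genotypes (-1.36) and Myog in C2C12 cells (0.67) are red, and the AAV values lie between -0.12 and 0.06.

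The criterion of the study was a log2 change of 1 or more in either direction together with an unadjusted p under 0.05. It was applied here to the limma differences of log2(FPKM + 1), while the study used DESeq2. The counts and shares that follow are therefore not those of the study. Fewer members passed where changes were small. In SOL against GC 3 members passed in F/F (7.99% of genes) and 3 in ChMKO (7.83%), namely Myod1, Id1 and Id3. In hypoxia Myod1 passed in F/F (0.168% of genes) and in ChMKO (1.00%), and Myog passed between ChMKO and F/F (0.0565%). On HFrD, Myod1 and Myog passed in ChMKO (5.06%) and Myod1 over both genotypes (2.56%). In C2C12 cells none of the 9 members passed (0.384% of genes), since the rise of Myog was below that fold.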

How the data were processed

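Libraries were made from mRNA, extracted with Trizol, and the submitters' processing notes name fastp 0.18.0, Bowtie2 2.2.8, HISAT2 2.1.0, StringTie 1.3.1 and RSEM, without roles. The authors deposited FPKM values, named so for the chow and the hypoxia and diet tables and taken from the values for the AAV and C2C12 tables. The build used for alignment is given in the notes as GRCm39, while positions in the chow table follow GRCm38. Whole reads, 14473170 to 23460515 per library, were recovered in the hypoxia and diet table (99.96% of values whole within 0.05). The depth of the other tables is unknown.

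Of repeated symbols only the entry with the largest mean level entered the fits. Gene identifiers matched a symbol for 20918 of 21039 entries (AAV) and 17842 of 17898 (C2C12). In R 4.3.3 each comparison was fitted with limma 3.58.1 (lmFit, eBayes with trend) on log2(FPKM + 1), with a pseudocount of 1, over genes whose mean reached 0.5 FPKM in the libraries compared. Tests were two-sided, with Benjamini-Hochberg adjustment over all genes tested. limma took the place of the count model of the study, since the values are not counts. Fits were tested on simulated data. The members and lists were chosen with earlier results of these data known. Members were named in every comparison, and of the lists at most the 3 largest calls in each direction, beside 3 E protein genes, named for their role after their values were seen. One gene that this rule would name is not reported here.

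The AAV table also holds fold changes and p-values of the authors' own comparison, which were not used. GC and SOL libraries share numbers in the labels, which may be those of the mice, but same-numbered libraries deviated together only in part (r = -0.0169 to 0.322 in F/F and 0.0210 to 0.0492 in ChMKO), so the block was kept as an alternative, except in the test of genotype by muscle, which had it from the start. AAV libraries with the same number deviated together (r = 0.212 to 0.489), so a fit with pairs was run beside the unpaired one, and the C2C12 libraries did not (r = -0.0939 to 0.176). Alternatives were another pseudocount (0.1), no filter or a mean of 5 FPKM, rescaling by the median ratio, 1 fit for all groups of a table, the study's criterion, voom on recovered reads, a replicate block, each library left out, and, chosen after seeing the data, the 2 sets of libraries and a block without number 69, whose title and column name differ.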

Additional observations from a re-analysis of the deposited data

Results flagged for a closer look

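Among 140 combinations of a member and a group, 10 (7.14%) held 1 library far from the others, where chance alone gives about 1 in 20. The gap was measured against the range of the group, and the explanations were not tested.

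Myog was high in Hypo ChMKO c345 (15.05 FPKM, others 4.92 to 5.87), in Norm ChMKO KO_370 (9.854, others 1.78 to 3.13) and in AAV-GFP 7 (7.839, others 2.99 to 4.22). Myf6 was also high in Hypo ChMKO c345 (154.3 FPKM, others 95.1 to 104.6). Myod1 was high in Hypo F/F c348 (7.027 FPKM, others 3.36 to 3.92).

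In SOL F/F library 71, Id1 was high (82.52 FPKM, others 33.9 to 43.9) and Myf6 low (23.2 FPKM, others 49.6 to 56.6). Myf6 was low in GC F/F library 58 (66.63 FPKM, others 78.7 to 79.5), and Myf5 was high in SOL ChMKO library 59 (0.7913 FPKM, others 0.292 to 0.391). In C2C12 cells, Pax7 was low in CON library 4 (4.83 FPKM, others 5.34 to 5.43).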

How the results depend on the processing

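Of 337 recomputed counts of members called, 323 stayed within 1.5 times the main count and 14 moved. Of 841 recomputed values of single members, 753 kept direction and call, 67 kept direction but lost the call, 10 gained it and 11 changed sign. The study's criterion was applied to the limma fits. By it the counts were 3 in place of 7 for SOL against GC in F/F and 3 in place of 7 in ChMKO. They were 1 in place of 0 for Hypo, ChMKO against F/F, and 1 in place of 0 for Hypo against Norm in F/F and in ChMKO. For HFrD against Norm they were 2 in place of 9 in ChMKO and 1 in place of 6 over both genotypes. In C2C12 cells the count was 0 in place of 3. With all groups in 1 fit the counts were 1 for Hypo against Norm in ChMKO, with 213 of 10676 genes called, and 5 of 9 for HFrD in ChMKO, with 5760 of 10733 genes called. Within set 1 the count for Hypo against Norm in F/F was 1. For HFrD over both genotypes it was 0 with the library set as a term and 0 within set 1, where Myf6 (0.0252 and 0.0380), Mef2a (-0.0561 and -0.0341) and Mef2d (0.0633 and 0.0293) changed sign. Myog in Hypo F/F, -0.05, became 0.0319 with voom and 0.29 within set 1, and -0.30 to 0.37 when libraries were left out. Myog between SOL and GC in F/F was -0.2529 to 0.0016 when libraries were left out. The genotype by diet interaction gave 0 to 1 members when libraries were left out. With the replicate block, 7 members were called between SOL and GC in F/F (6467 of 13235 genes called) and 7 in ChMKO (7266 of 13080). The counts were 0 with AAV (1 of 11033 genes called) and 3 in C2C12 cells (3357 of 11972). In these fits 2 calls changed, Mef2a in ChMKO (lost, adjusted p = 0.0522) and Myog in ChMKO (gained, adjusted p = 0.0468). In ChMKO mice same-numbered libraries of SOL and GC were hardly alike. Apart from the sets and samples named, the cause was not tested. Low read numbers limit Pax7 and Myf5, the former at 26 to 85 and the latter at 15 to 51 reads where reads could be recovered.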

Other observations

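Over the 24 libraries of the hypoxia and diet experiment and 9315 genes whose mean reached 1 FPKM, the genes whose log2 levels followed Myod1 most closely were Prkcd (Pearson r = 0.879), Dusp13 (0.865), Cry1 (0.865), Map7d1 (0.860) and Smtnl2 (0.854). After the mean of each of the 6 groups was removed they were Bcl9l (0.855), Pold2 (0.819), Fam120b (0.804), Serp1 (0.799) and Lrrc30 (0.787), with no gene in both lists. The genes most like Myog were Mlip (0.906), Lgmn (0.901), Ctss (0.890), Hspb1 (0.887) and Vim (0.883), and, with group means removed, Fn1 (0.864), Nupr1 (0.863), Mpeg1 (0.856), Olfml2b (0.855) and Col5a1 (0.852). Ctss and Mpeg1 are expressed in macrophages, and Fn1 and Col5a1 encode proteins of the extracellular matrix. The libraries share groups, the 2 sets of libraries and the few libraries high in Myog, so these values are a description.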
